A study of Mus musculus with 24 samples.

Results

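Pyridostigmine in the uninjured heart was read from 12 of the 24 libraries of a mouse series: the 6 whose column in the unfiltered count table begins with WT-PYR, set against the 6 whose column begins with WT-PBS. The WT_PYR mice received pyridostigmine and no diphtheria toxin. The WT_PBS mice received phosphate-buffered saline, the vehicle, and no diphtheria toxin. Both groups were wild-type C57BL/6 males aged 10 weeks, the hearts belong to day 5 of the study, and RNA came from the apex of the ventricles, so atria, sinus node and most of the cardiac ganglia lie outside the sample. Neither the dose nor the route of the drug is stated in the labels. The other 12 libraries came from hearts injured with diphtheria toxin in mice called DTR, and they enter only the test of whether the drug acted otherwise there. Every title carried its own animal tag, and each library was taken as 1 animal.

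Pyridostigmine inhibits cholinesterase enzymes, which clear acetylcholine by hydrolysis, and so prolongs the action of that transmitter. In the heart, vagal acetylcholine acts mainly on the muscarinic M2 receptor of muscle cells, which signals through inhibitory G proteins to open a potassium channel and to restrain the production of cyclic AMP. The parasympathetic fibres are densest in atria and nodes and sparser in the ventricle. The comparison asks which genes of the ventricle, if any, had another RNA level under the drug when there was no injury, and how large a change could have gone unseen.

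The libraries held 3.73 to 34.9 M counted reads. Totals ran from 7.24 to 15.3 M in WT_PYR and from 3.73 to 34.9 M in WT_PBS, so the vehicle group spread more widely, and the exact two-sided permutation test of their means gave p = 0.344. Mitochondrially encoded genes took 10.6 ± 1.499% of the reads in WT_PYR and 14.4 ± 6.87% in WT_PBS (SD, n = 6 each). WT_PBS 4 had the lowest share at 6.01% and WT_PBS 6 the highest at 25.6%, and without WT_PBS 4 the difference of −3.77 percentage points became −5.44, with an exact permutation p of 0.0411 in place of 0.227, both unadjusted. The 10 most abundant genes took 19.6 ± 2.61% in WT_PYR and 23.6 ± 5.08% in WT_PBS (SD, n = 6 each). Ventricular muscle genes were strong in every library: Myh6, the fast myosin of the adult heart, lay between 24019 and 33811 CPM (counts scaled to a common library size, here with TMM, the trimmed mean of log ratios between libraries) in WT_PYR and between 28973 and 31888 CPM in WT_PBS. Genes of the Y chromosome were present in all libraries and Xist stayed below the level needed for a test, as the label male implies.

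No gene passed the test. Of the 46078 genes in the table, 26603 had a read in these 12 hearts and 13989 lay above 0.5 CPM in at least 6 of them; these took 99.9% of the reads. The quasi-likelihood test of edgeR called 0 of 13989 genes at a Benjamini-Hochberg adjusted p of 0.05, which is 0% of those tested, and the smallest adjusted p was 0.548. At an unadjusted p under 0.05 there were 881 genes, or 6.30%, of which 282 (2.02%) were higher and 599 (4.28%) lower in WT_PYR. That count depended on single animals: it was 553 without WT_PYR 4, 577 without WT_PYR 5, 523 without WT_PBS 1, 501 without WT_PBS 6 and 1787 without WT_PBS 4, where 7 genes were called. limma voom on the same genes also called 0, with 1026 at an unadjusted p under 0.05. DESeq2 called 7, all lower in WT_PYR, with 900 at an unadjusted p under 0.05. The estimates were small as a whole: their median was −0.02 on the log2 scale, the middle of their distribution ran from −0.21 at the lower to 0.14 at the upper quartile, and 7440 of them, 53.2%, lay below 0. In 40 genes, 0.286% of those tested, the 6 libraries of one group lay entirely on one side of the other 6, with 15 genes (0.107%) higher and 25 (0.179%) lower in WT_PYR.

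**Figure D1:**
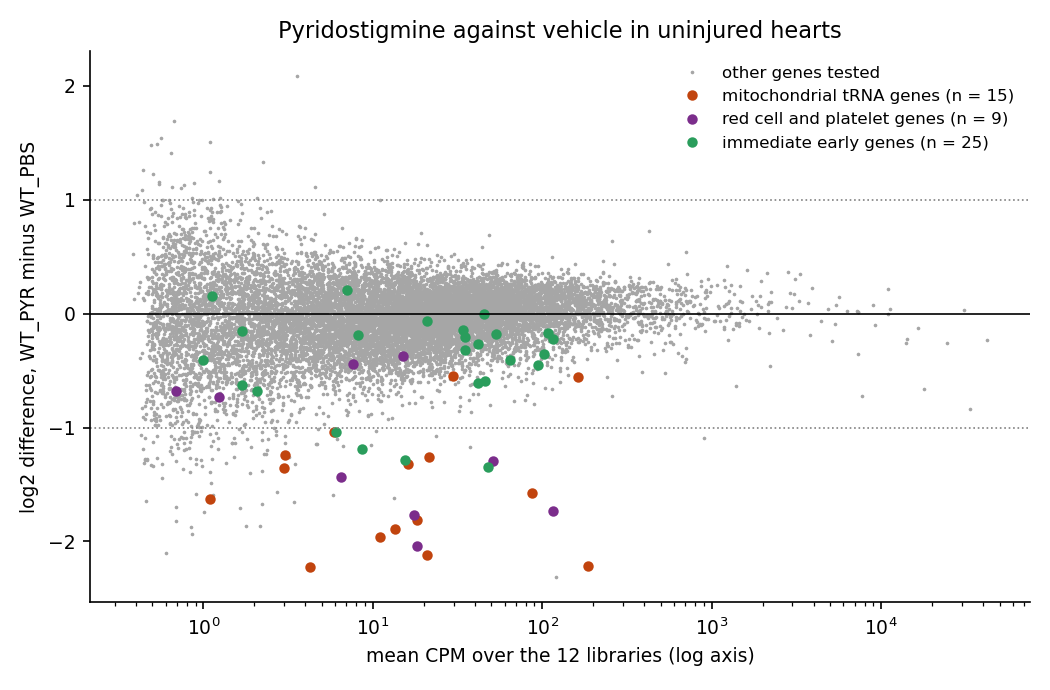
Each point is 1 of 13989 genes, with its mean CPM over the 12 libraries (log axis) and its log2 difference, WT_PYR minus WT_PBS. Dotted lines mark a 2-fold change. Points gather around 0, and the coloured groups of mitochondrial tRNA, red cell and platelet, and immediate early genes lie mostly below it, although none of their members passed the test across all genes.

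An absence of calls does not show that levels were equal, so the interval of each difference was read as well. For every gene the limma voom fit gave a log2 difference with a 95% interval, and the larger fold, up or down, that the interval still holds is called its bound. The median bound was 1.52-fold. It was 1.34-fold at the 25th percentile of genes, 1.93-fold at the 75th and 3.19-fold at the 95th. A change of 2-fold in either direction was outside the interval for 10832 genes, 77.4% of those tested, and a change of 1.5-fold for 6662, or 47.6%. For 532 genes (3.80%) the interval lay within 1.2-fold, and for 13637 (97.5%) within 4-fold. Rises were bounded more often than falls: a 2-fold rise was outside the interval for 12719 genes (90.9%) and a 2-fold fall for 11678 (83.5%). In 3157 genes a 2-fold change remained inside the interval, and in 157 the estimate itself exceeded 2-fold.

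These are intervals for single genes, and 13989 of them were read at once. Equivalence was therefore also tested with a pair of one-sided moderated tests per gene and Benjamini-Hochberg adjustment over all genes. By that test 6558 genes (46.9%) were equivalent within 1.5-fold, 11420 (81.6%) within 2-fold, and 0 within 1.2-fold. The test at 0.05 corresponds to a narrower interval than 95%, so its count at 2-fold can exceed that of the intervals. With Bonferroni limits, which hold for all genes together, 15 genes stayed within 1.5-fold, 2315 (16.5%) within 2-fold and 8896 (63.6%) within 4-fold.

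What could be bounded depended on the level of the gene. Among the 1249 genes under 1 CPM the median bound was 2.71-fold, and the interval lay within 2-fold for 11.4% of them and within 1.5-fold for 0%. From 1 to 5 CPM (2956 genes) the median bound was 1.905-fold, with 57.2% of genes within 2-fold. From 5 to 20 CPM (4039 genes) it was 1.52-fold, with 85.9% within 2-fold and 47.2% within 1.5-fold. From 20 to 100 CPM (4371 genes) it was 1.35-fold, with 95.9% within 2-fold and 75.2% within 1.5-fold. Above that the gain was slight: the median bound was 1.32-fold for the 1158 genes of 100 to 500 CPM and 1.29-fold for the 216 genes of 500 CPM and over, where 83.3% lay within 1.5-fold.

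**Figure D2:**
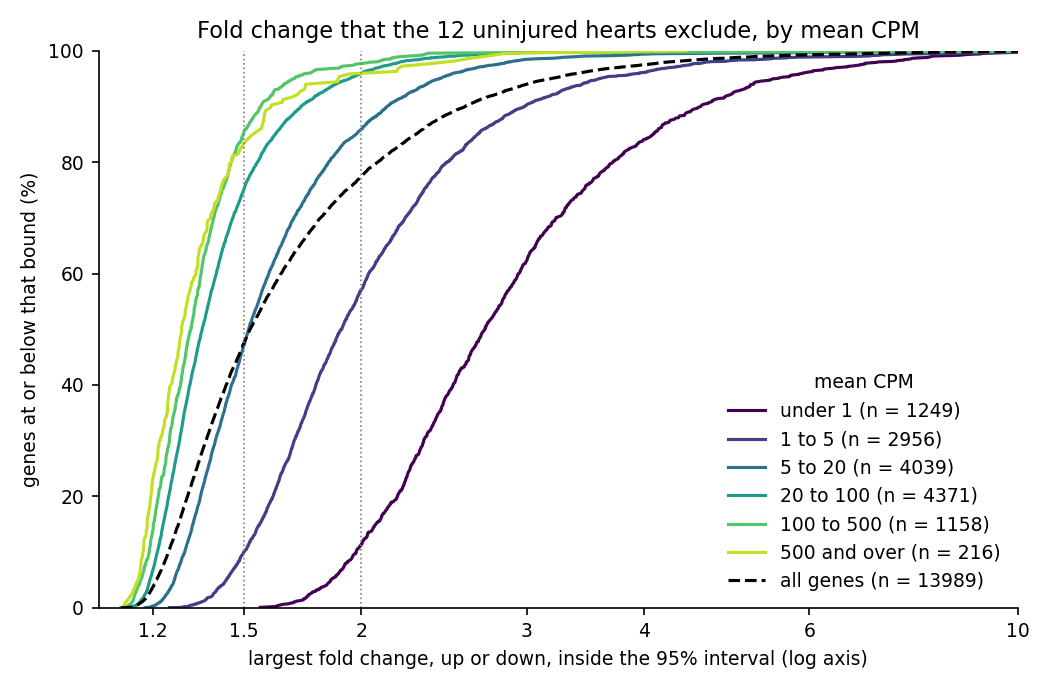
For each class of mean CPM, the curve gives the percentage of genes (vertical axis) whose bound, the largest fold change inside the 95% interval, is at or below the value on the horizontal axis (log axis). The dashed curve of all genes reaches 47.6% at 1.5-fold and 77.4% at 2-fold, and the class under 1 CPM reaches 11.4% at 2-fold.

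The narrowest intervals among genes of at least 20 CPM were read first. Sptan1, a spectrin of the membrane skeleton, averaged 297.8 ± 12.03 CPM in WT_PYR and 297.8 ± 11.9 CPM in WT_PBS (SD, n = 6 each). Its log2 difference was −0.00, with an interval from −0.15 to 0.14 and a bound of 1.11-fold. Slc25a4, the main ADP/ATP carrier of heart mitochondria, averaged 4906 ± 220 CPM in WT_PYR and 4780 ± 254 CPM in WT_PBS, with an interval from −0.10 to 0.18. Rpl4, a ribosomal protein, Akap13, an anchoring protein of protein kinase A, Nfe2l1, a transcription factor, and Rab7, a GTPase of late endosomes, had bounds between 1.12-fold and 1.18-fold. The widest, apart from mitochondrial tRNAs and globins, were Cyp26b1, which breaks down retinoic acid, with an interval from −2.50 to 0.87, and Rny3, a small cytoplasmic RNA, from −2.66 to 0.32.

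The genes around acetylcholine itself came next. Neither cholinesterase passed the test, and the bounds differed with level. Ache, the gene of acetylcholinesterase, the main target of the drug (ENSMUSG00000023328, GRCm38 chromosome 5, 137287519 to 137294466), had 3.05, 4.03 and 5.84 CPM as its lowest, median and highest WT_PYR library, against 2.18, 3.40 and 5.79 CPM in WT_PBS. The groups overlapped almost fully, and the log2 difference was 0.32 (SE 0.24, 95% interval −0.19 to 0.83; edgeR adjusted p = 0.865). A rise of Ache by 1.78-fold or more was thus outside the interval. Bche, butyrylcholinesterase, which the drug also blocks (chromosome 3, 73635808 to 73708415), had 2.03, 6.15 and 10.7 CPM in WT_PYR and 3.20, 5.61 and 16.4 CPM in WT_PBS. Its interval ran from −1.31 to 0.69, so a 2-fold fall was inside it. Colq, the collagen tail that fixes acetylcholinesterase to the matrix, averaged 17.0 ± 6.63 CPM in WT_PYR and 14.1 ± 4.19 CPM in WT_PBS (SD, n = 6 each), with an interval from −0.32 to 0.87. Lynx1, a membrane-anchored protein that restrains nicotinic receptors, had 377, 414 and 484 CPM in WT_PYR against 298, 399 and 416 CPM in WT_PBS, and 3 WT_PYR libraries lay above all of WT_PBS. Its log2 difference was 0.16 (SE 0.10, −0.05 to 0.38), which leaves at most a 1.30-fold rise inside the interval.

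Of the 9 genes listed for the synthesis, release and breakdown of acetylcholine, only these 4 were abundant enough to test. Chat, choline acetyltransferase, had 2 reads in the 6 WT_PYR libraries and 0 in the 6 WT_PBS libraries, and Slc18a3 and Slc5a7, the vesicular and the membrane carrier, were at 0 in all 12. Of 21 receptor genes 6 could be tested. Chrm2, the M2 receptor of heart muscle (ENSMUSG00000045613, chromosome 6, 36388084 to 36528414), had 27.8, 80.6 and 107.5 CPM as lowest, median and highest in WT_PYR, against 39.6, 77.8 and 131.4 CPM in WT_PBS. Both groups were spread over more than a 3-fold range and overlapped throughout, which gave a log2 difference of −0.09 (SE 0.33, −0.79 to 0.62; edgeR adjusted p = 0.964). The low end was a single library in each group. WT_PYR 1 lay lowest, with the next library at 75.2 CPM, and so did WT_PBS 4, with the next at 62.9 CPM. The same libraries were lowest of their groups for Bche. A fall of Chrm2 beyond 1.72-fold and a rise beyond 1.53-fold were outside the interval. Chrm3, a muscarinic receptor coupled to Gq, lay near the limit of detection and had an interval from −1.49 to 0.54. Among nicotinic subunits Chrna2 had the smallest p, with 2.11, 3.21 and 4.11 CPM in WT_PYR and 0.964, 2.40 and 3.23 CPM in WT_PBS (0.56, −0.03 to 1.16; edgeR adjusted p = 0.783). Chrna7, the nicotinic receptor known from macrophages, was not tested, with 0 reads in WT_PYR and 2 in WT_PBS.

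Downstream of the M2 receptor, 30 listed genes of muscarinic signalling in heart muscle were tested, 15 higher and 15 lower, with a median log2 difference of 0.00 against −0.02 over all genes. For 20 of the 30 the interval lay within 1.5-fold and for 24 within 2-fold. None was called, and 3 higher and 2 lower genes had an unadjusted p under 0.05 (16.7% in all, against 6.30% over all genes). The potassium channel that acetylcholine opens is built of 2 subunits, and they were bounded very unequally. Kcnj5 had 74.4, 80.7 and 89.7 CPM in WT_PYR and 74.7, 78.2 and 94.98 CPM in WT_PBS, and its interval, from −0.21 to 0.17, held no change beyond 1.16-fold. Kcnj3 had 6.50, 18.4 and 27.2 CPM in WT_PYR and 10.3, 21.8 and 48.5 CPM in WT_PBS, and its interval ran from −1.38 to 0.30. Gnai2, an inhibitory G protein subunit, averaged 386 ± 43.5 CPM in WT_PYR and 341 ± 58.4 CPM in WT_PBS (SD, n = 6 each; −0.07 to 0.46). Gnao1, the subunit of Go, had 23.6, 26.8 and 30.0 CPM in WT_PYR and 17.1, 22.7 and 24.6 CPM in WT_PBS, and 5 of 6 WT_PYR libraries lay above all of WT_PBS. Its log2 difference was 0.31 (SE 0.11, 0.07 to 0.54; edgeR adjusted p = 0.783).

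The regulators of G protein signalling, which end the signal by speeding the hydrolysis of GTP, also varied. Rgs2, which acts mainly on Gq, had 10.5, 13.6 and 19.6 CPM in WT_PYR and 16.1, 24.3 and 36.7 CPM in WT_PBS, the smallest p of the list (−0.73, SE 0.22, −1.20 to −0.26; edgeR adjusted p = 0.783). Rgs4 had 2.92, 8.07 and 15.02 CPM in WT_PYR and 9.01, 11.3 and 19.8 CPM in WT_PBS, and 5 of 6 WT_PYR libraries lay below all of WT_PBS (−0.75, −1.41 to −0.09). Rgs6, the regulator tied to the muscarinic potassium channel, differed by 0.07 with an interval from −0.15 to 0.28, so that a change beyond 1.21-fold was outside it. Adcy5, a main adenylyl cyclase of heart muscle, averaged 178 ± 21.0 CPM in WT_PYR and 147 ± 22.7 CPM in WT_PBS (0.28, 0.03 to 0.54), and Popdc2, a membrane protein that binds cyclic AMP, 688 ± 136 CPM in WT_PYR and 574 ± 42.2 CPM in WT_PBS (0.25, −0.00 to 0.50; SD, n = 6 each).

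The sympathetic side was read beside it. Of 13 adrenergic genes tested none was called, 1 higher and 1 lower gene had an unadjusted p under 0.05 (15.4% in all, against 6.30% over all genes), and the median log2 difference was 0.01. Adrb1, the main beta receptor of the heart, averaged 31.7 ± 6.08 CPM in WT_PYR and 32.5 ± 7.59 CPM in WT_PBS (SD, n = 6 each), with a bound of 1.29-fold. Dbh, which makes noradrenaline, had 4.73, 6.24 and 8.17 CPM in WT_PYR and 2.16, 3.91 and 6.45 CPM in WT_PBS (0.88, 0.38 to 1.37; edgeR adjusted p = 0.783). Adra2b, an alpha2 receptor, had 0.531, 0.906 and 1.37 CPM in WT_PYR and 1.38, 1.56 and 2.78 CPM in WT_PBS, without overlap (−0.81, −1.41 to −0.21). The pacemaker channels Hcn2 and Hcn4 had intervals from −0.18 to 0.52 and from −0.10 to 0.75.

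A panel of 28 genes around the drug and the heart was given whatever its values. Of these, 26 were tested, 9 had an interval within 1.5-fold and 19 within 2-fold, none separated the groups, and 4 (Fos, Gnao1, Rgs4 and Nppa) had an unadjusted p under 0.05. Over all genes tested 47.6% lay within 1.5-fold and 77.4% within 2-fold, 0.286% separated the groups and 6.30% were under that p. The remaining pair of the panel, Chrna7 and the cytokine gene Il6, with 10 reads in all, were too low to test.

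**Figure D3:**
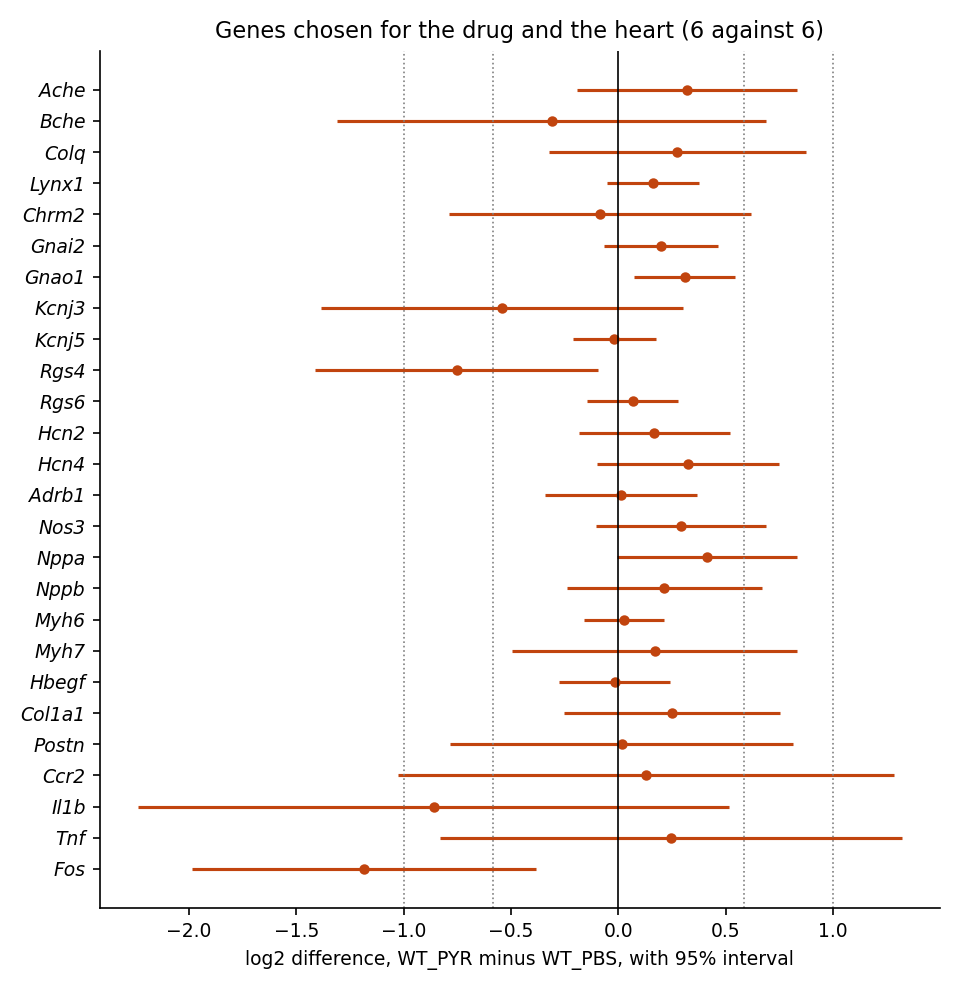
For the 26 tested genes of the panel, the dot gives the log2 difference, WT_PYR minus WT_PBS, and the bar its 95% interval (6 against 6 libraries). Dotted lines mark 1.5-fold and 2-fold changes in either direction. Kcnj5, Myh6 and Rgs6 have the shortest bars, and Il1b, Ccr2 and Tnf have the longest.

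Muscle genes of the ventricle were tightly bounded. Of 26 sarcomere genes 23 had an interval within 1.5-fold and 25 within 2-fold; the exception was Xirp2, an actin-binding protein of the intercalated disc, with a bound of 2.25-fold. Myh6 differed by 0.03 (SE 0.09, −0.16 to 0.21). Ldb3, a protein of the Z-disc, had the smallest p of the list, with 1589 ± 127 CPM in WT_PYR and 1358 ± 163 CPM in WT_PBS (0.24, 0.04 to 0.44; SD, n = 6 each). Among 34 genes of ion channels and calcium handling, 22 were within 1.5-fold and 31 within 2-fold. None was called, and 4 of the 34, all higher in WT_PYR, had an unadjusted p under 0.05, where 2.02% of all genes were higher at that p. Among them were Cacna1h, a T-type calcium channel (0.60, 0.13 to 1.07), Kcnj11, the pore of the ATP-sensitive potassium channel (0.32, 0.03 to 0.62), and Kcnq1, the channel of the slow delayed rectifier (0.34, 0.02 to 0.65). Cacna1h had 21.2, 24.9 and 26.9 CPM as its lowest, median and highest WT_PYR library, against 8.56, 18.3 and 22.5 CPM in WT_PBS, and 5 of 6 WT_PYR libraries lay above all of WT_PBS.

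Stress and fetal genes of the heart were less tightly held. Nppa, the gene of atrial natriuretic peptide, had 68.9, 102.8 and 140 CPM in WT_PYR and 52.6, 78.1 and 105.5 CPM in WT_PBS, and 3 of 6 WT_PYR libraries lay above all of WT_PBS. Its log2 difference was 0.41 (SE 0.20, −0.01 to 0.83; edgeR adjusted p = 0.783), but within the animals tagged 3xxU the difference was −0.10, against 0.75 within 2xxU and 0.55 within 9xxV. Nppb, B-type natriuretic peptide, had 129.0, 211.6 and 349 CPM in WT_PYR and 131.8, 188.6 and 233 CPM in WT_PBS (0.21, −0.24 to 0.67). Acta1, skeletal actin, had the smallest p of the 20 genes, with 244, 275 and 468 CPM in WT_PYR and 132, 205 and 253 CPM in WT_PBS (0.63, 0.24 to 1.03; edgeR adjusted p = 0.783). Within tag series Acta1 differed by 1.36, 0.01 and 0.46 in 2xxU, 3xxU and 9xxV animals. Myh7, the slow myosin, ranged from 231 to 833 CPM in WT_PYR and from 205 to 563 CPM in WT_PBS, so its interval ran from −0.49 to 0.83. Hbegf, whose human form is the receptor of diphtheria toxin, differed by −0.02 with a bound of 1.21-fold.

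Most nuclear genes of energy metabolism were bounded within 2-fold. All 25 tested genes of glycolysis and glycogen lay within 2-fold and 22 within 1.5-fold. In fatty acid oxidation 26 of 29 lay within 2-fold, in the citric acid cycle 17 of 18, and in the nuclear-encoded respiratory chain 41 of 44. The last list had 8 genes with an unadjusted p under 0.05, all lower in WT_PYR (18.2% of its 44, against 4.28% lower over all genes), a median of −0.07 and no call. Uqcrb of complex III averaged 60.5 ± 13.5 CPM in WT_PYR and 102 ± 47.2 CPM in WT_PBS (SD, n = 6 each). Ndufs4 of complex I averaged 57.7 ± 11.01 CPM in WT_PYR and 86.3 ± 30.1 CPM in WT_PBS, and Cycs, cytochrome c, 58.9 ± 12.7 CPM in WT_PYR and 91.0 ± 36.4 CPM in WT_PBS. In each of these 3 genes the groups overlapped and WT_PBS had the wider spread. In the protein-coding genes of the mitochondrial chromosome itself, 11 of 12 tested were lower in WT_PYR, with a median of −0.31. Among these 12, 3 had an unadjusted p under 0.05 (25%, all lower, against 4.28% lower over all genes), and 5 lay within 2-fold. Their counted levels were very unequal. Median mt-Co1 was 20592 CPM in WT_PYR and 25762 CPM in WT_PBS. Median mt-Co2 was 1.12 and 1.06 CPM in the same order. mt-Co3, among the 3 with an unadjusted p under 0.05, had medians of only 0.916 CPM in WT_PYR and 3.16 CPM in WT_PBS. mt-Atp8, a subunit of the ATP synthase, had 346, 484 and 565 CPM in WT_PYR and 211, 1189 and 3171 CPM in WT_PBS, so that WT_PBS libraries lay both below and far above the WT_PYR range. The mitochondrial share of the libraries, given above, is computed from the genes of this chromosome, so it moves with them by construction. A fit with that share as a covariate called no gene either, and the part of the share in the result was not tested further.

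With genes of 5 CPM or more ranked by p, predicted and unnamed genes left out, the first 12 places all belonged to genes lower in WT_PYR, and 4 of them were tRNA genes of the mitochondrial chromosome: mt-Ts1, mt-Tc, mt-Tq and mt-Ta. Mitochondria carry their own set of tRNAs, which translate the few proteins of that genome and are cut from long transcripts of its strands. The 4 sequences are given since mt-Ts1 and mt-Tc have the smallest p of the ranking, and all 4 lie on the minus strand. They are 66 to 71 bases long and come from the GENCODE vM21 transcripts with GRCm38 positions, written 5′ to 3′ as DNA, with the anticodon in capitals.
mt-Ts1, serine, MT:6870-6938: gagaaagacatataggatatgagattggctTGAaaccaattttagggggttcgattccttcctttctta
mt-Tc, cysteine, MT:5192-5257: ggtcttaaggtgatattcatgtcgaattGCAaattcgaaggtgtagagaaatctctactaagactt
mt-Tq, glutamine, MT:3772-3842: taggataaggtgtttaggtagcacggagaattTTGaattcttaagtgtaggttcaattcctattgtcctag
mt-Ta, alanine, MT:5018-5086: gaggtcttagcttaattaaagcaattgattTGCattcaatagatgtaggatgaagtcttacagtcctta
In each, the 5 bases before the loop pair with the 5 after it. The libraries were made from polyadenylated RNA and were not strand-specific, so reads of the tRNA and of transcripts from the opposite strand cannot be told apart.

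mt-Ts1, the tRNA for serine codons that begin with UC, had 35.1, 53.6 and 84.7 CPM as its lowest, median and highest WT_PYR library, against 53.1, 260 and 666 CPM in WT_PBS. The WT_PYR libraries were all low, and WT_PBS 4, the lowest of its group, lay among them. Its log2 difference was −2.21 (SE 0.51, −3.31 to −1.12; edgeR adjusted p = 0.548), and within tag series it was −2.13, −2.15 and −2.24 in 2xxU, 3xxU and 9xxV animals. mt-Tc had 3.85, 5.57 and 8.32 CPM in WT_PYR and 6.79, 19.5 and 36.1 CPM in WT_PBS (−1.89, SE 0.46, −2.87 to −0.91), with within-series differences of −1.87, −1.36 and −1.81. mt-Tq had 3.002, 6.30 and 11.4 CPM in WT_PYR and 4.77, 28.0 and 71.0 CPM in WT_PBS (−2.12, −3.65 to −0.58). mt-Ta had 4.64, 5.90 and 9.92 CPM in WT_PYR and 4.05, 24.2 and 57.2 CPM in WT_PBS (−1.82, −3.23 to −0.40). In every one of the 4, WT_PBS 4 was the lowest vehicle library.

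Once these were seen, all tRNA genes of the mitochondrial chromosome were looked at. Of 22 in the reference 15 were tested, and all 15 had lower estimates in WT_PYR, from −2.22 to −0.55 with a median of −1.57. At an unadjusted p under 0.05 there were 8, 6 of the 8 tested on the minus strand and 2 of the 7 on the plus strand. Over all genes 53.2% of estimates lay below 0 and 4.28% were lower at that p. None of the 15 tRNA genes separated the groups, where 0.286% of all genes did. Summed over all mitochondrial tRNA genes counted, tested or not, the level was 161, 274 and 522 CPM in WT_PYR as lowest, median and highest. In WT_PBS it was 143, 733 and 1556 CPM. WT_PBS 4 held the 143 CPM and WT_PBS 1 and 6 the highest levels, and the same 3 libraries had mitochondrial shares of 6.01%, 16.7% and 25.6%. WT_PBS 5 had a share of 16.7% too, with 757 CPM of these tRNAs, and WT_PBS 1 and 6 were also the deepest libraries, with 33.2 and 34.9 M reads. Fits with the mitochondrial share as a covariate, or without the 3 deepest libraries, called no gene, but neither did the main fit. These counts of calls therefore cannot isolate the part of share and depth in the tRNA result, which was not tested further. Without WT_PBS 4 edgeR called 7 genes, all lower in WT_PYR: mt-Ts1, mt-Tc, mt-Ta, mt-Ti, mt-Tq, mt-Ty and the predicted gene Gm15564 of chromosome 16. DESeq2 on all 12 libraries called mt-Tc, mt-Ts1, mt-Ti, Apold1, Otud1, Gm15564 and Atf3, with adjusted p between 0.000535 and 0.0461. Gm15564 had 17.8, 25.6 and 85.0 CPM in WT_PYR and 30.9, 179 and 417 CPM in WT_PBS, and here too WT_PBS 4 was the lowest of its group.

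**Figure D4:**
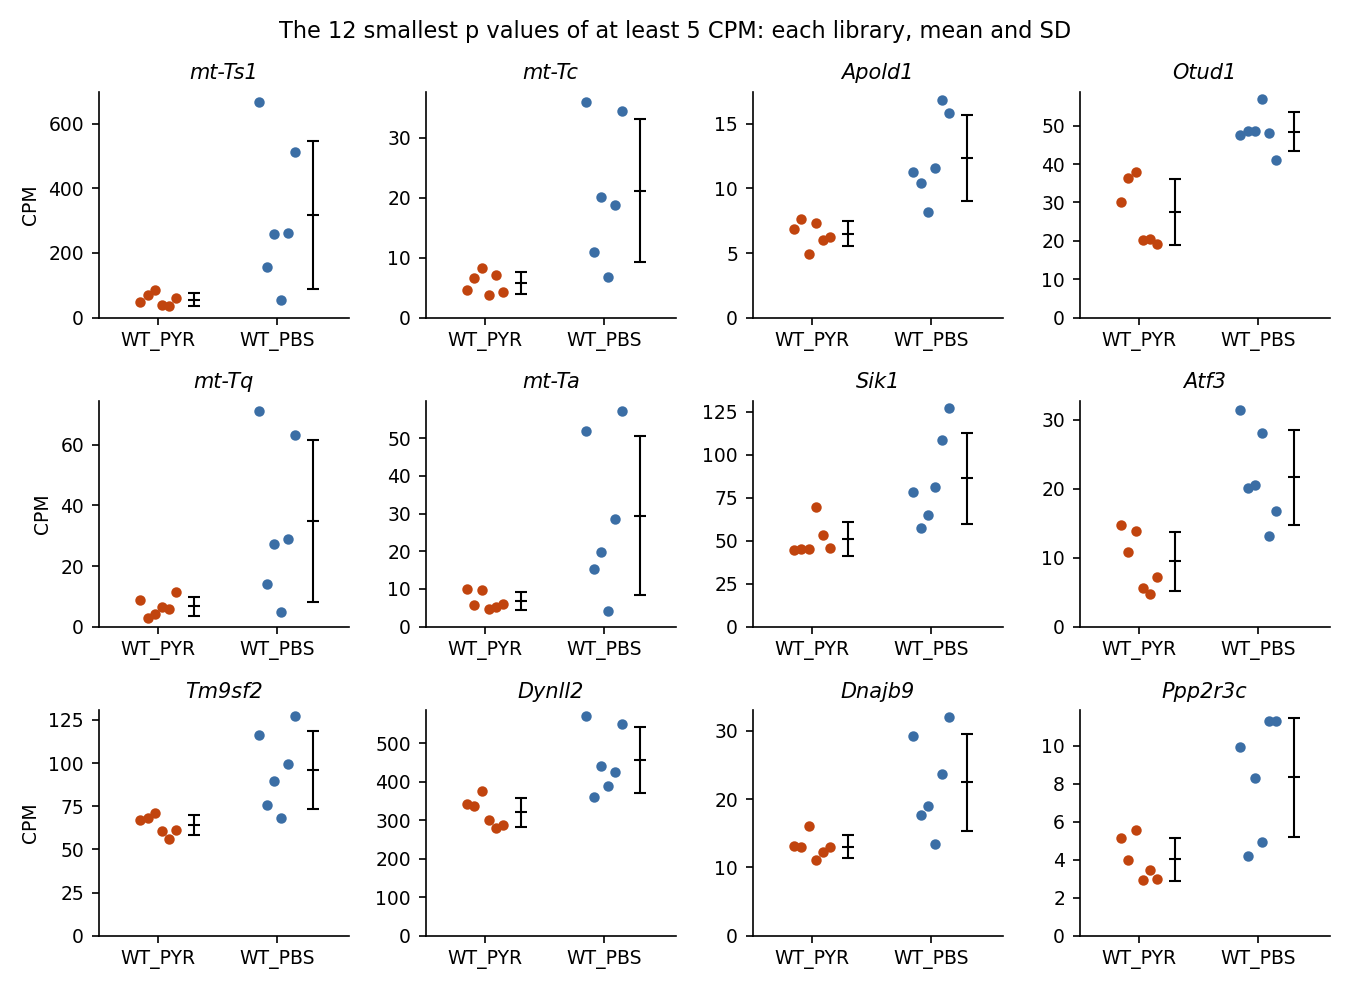
CPM of each library (points), with group mean and SD beside them, for the 12 genes of smallest p with a mean of 5 CPM or more, predicted and unnamed genes left out, WT_PYR left of WT_PBS. In Apold1 and Otud1 the groups do not overlap. In the tRNA genes the WT_PYR points sit close together and the WT_PBS points spread widely.

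The other 8 genes of that ranking are encoded in the nucleus, and in Apold1 and Otud1 every WT_PYR library lay below every WT_PBS library. Apold1, an endothelial gene of early responses (ENSMUSG00000090698, chromosome 6, 134982001 to 134986836), had 4.97, 6.55 and 7.67 CPM in WT_PYR and 8.15, 11.4 and 16.9 CPM in WT_PBS. Its log2 difference was −0.89 (SE 0.19, −1.30 to −0.48; edgeR adjusted p = 0.597), with −0.68, −1.10 and −0.86 in 2xxU, 3xxU and 9xxV animals. Otud1, a deubiquitinase (ENSMUSG00000043415, chromosome 2, 19657752 to 19660583), had 19.3, 25.3 and 37.98 CPM in WT_PYR and 41.0, 48.3 and 56.9 CPM in WT_PBS (−0.86, SE 0.17, −1.23 to −0.49; edgeR adjusted p = 0.597). Within tag series it was −1.06 and −1.28 in 2xxU and 3xxU animals and −0.26 in 9xxV animals. Sik1, a kinase induced by cyclic AMP, had 44.8, 45.6 and 69.8 CPM in WT_PYR and 57.3, 79.8 and 126.9 CPM in WT_PBS, and 5 of 6 WT_PYR libraries lay below all of WT_PBS (−0.76, −1.16 to −0.37). The same held for Tm9sf2, a membrane protein of endosomes (−0.58, −0.89 to −0.26), Dynll2, a dynein light chain (−0.51, −0.78 to −0.25), and Dnajb9, a co-chaperone of the endoplasmic reticulum (−0.79, −1.24 to −0.33). Ppp2r3c, a regulatory subunit of protein phosphatase 2A, differed by −1.10 (−1.69 to −0.51). A 2-fold fall lay outside the interval in Tm9sf2 and Dynll2 and inside it in the other 6 genes, Atf3 included.

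Atf3, a stress-induced transcription factor, opened the list of immediate early genes, which are switched on within minutes by stimuli of many kinds. It had 4.73, 8.995 and 14.7 CPM in WT_PYR and 13.1, 20.4 and 31.4 CPM in WT_PBS (−1.29, SE 0.29, −1.90 to −0.67; edgeR adjusted p = 0.783). Of the 25 tested genes of the list 23 were lower in WT_PYR, with a median of −0.32 against −0.02 over all genes; 9 had an unadjusted p under 0.05, all lower, where 4.28% of all genes did, and none was called. Nr4a1, an orphan nuclear receptor, had 13.2, 29.0 and 45.1 CPM in WT_PYR and 30.0, 65.2 and 120.8 CPM in WT_PBS (−1.35, −2.06 to −0.63). Fos had 2.74, 4.36 and 11.6 CPM in WT_PYR and 3.72, 12.5 and 17.0 CPM in WT_PBS (−1.18, −1.98 to −0.38), so the groups overlapped over much of their range. Fosl2 and Btg2, a partner of Jun and an antiproliferative protein, differed by −0.61 (−0.97 to −0.26) and −0.59 (−0.92 to −0.26). The members of such a list move together within an animal, so their number is not a number of independent observations.

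Heat shock genes had estimates of both signs. Of 18 tested, 12 were lower and 6 higher, with 6 and 2 at an unadjusted p under 0.05, against 4.28% lower and 2.02% higher over all genes, and none was called. Hspb6, a small heat shock protein of muscle, had 1154, 1373 and 1714 CPM in WT_PYR and 834, 1092 and 1241 CPM in WT_PBS (0.42, 0.18 to 0.66), with 5 of 6 WT_PYR libraries above all of WT_PBS, and Hspb7, of the same family, differed by 0.30 (0.08 to 0.53). The chaperonin Hspe1 of mitochondria had 19.1, 25.7 and 44.9 CPM in WT_PYR and 28.9, 41.6 and 65.3 CPM in WT_PBS (−0.76, −1.30 to −0.23). Hspa1a, the inducible member of the Hsp70 family, differed by −0.86 (−1.53 to −0.18), and the co-chaperone Dnajb1 and the exchange factor Hsph1 by −0.42 and −0.43. Glucocorticoid-responsive genes had no call and 3 lower and 1 higher at an unadjusted p under 0.05 among 12, against 4.28% lower and 2.02% higher over all genes, with Errfi1, a feedback inhibitor of the EGF receptor, at −0.57 (−0.98 to −0.16), and all 12 had an interval within 2-fold. In the circadian clock 0 of 20 had an unadjusted p under 0.05, but only 12 lay within 2-fold. Arntl, a core activator of the clock, had the widest interval there, from −0.85 to 2.03.

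Red cell and platelet genes had the lowest median of the 43 lists, −1.30, and all 9 tested members were lower in WT_PYR, 7 of them at an unadjusted p under 0.05, where over all genes 53.2% of estimates lay below 0 and 4.28% were lower at that p; none was called. Hbb-bs, a beta globin, had 13.8, 30.6 and 217.9 CPM in WT_PYR and 25.4, 115 and 377 CPM in WT_PBS, overlapping widely, and its interval ran from −3.21 to −0.26. Alas2, which starts heme synthesis in red cells, differed by −1.44 (−3.03 to 0.15), and Pf4 of platelets by −0.44 (−0.90 to 0.02). Summed over the list, the level was 51.2, 87.4 and 393 CPM in WT_PYR and 71.7, 239 and 715 CPM in WT_PBS. In tissue RNA, fewer cells of a type and less RNA per cell cannot be told apart, here as in every list below.

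**Figure D5:**
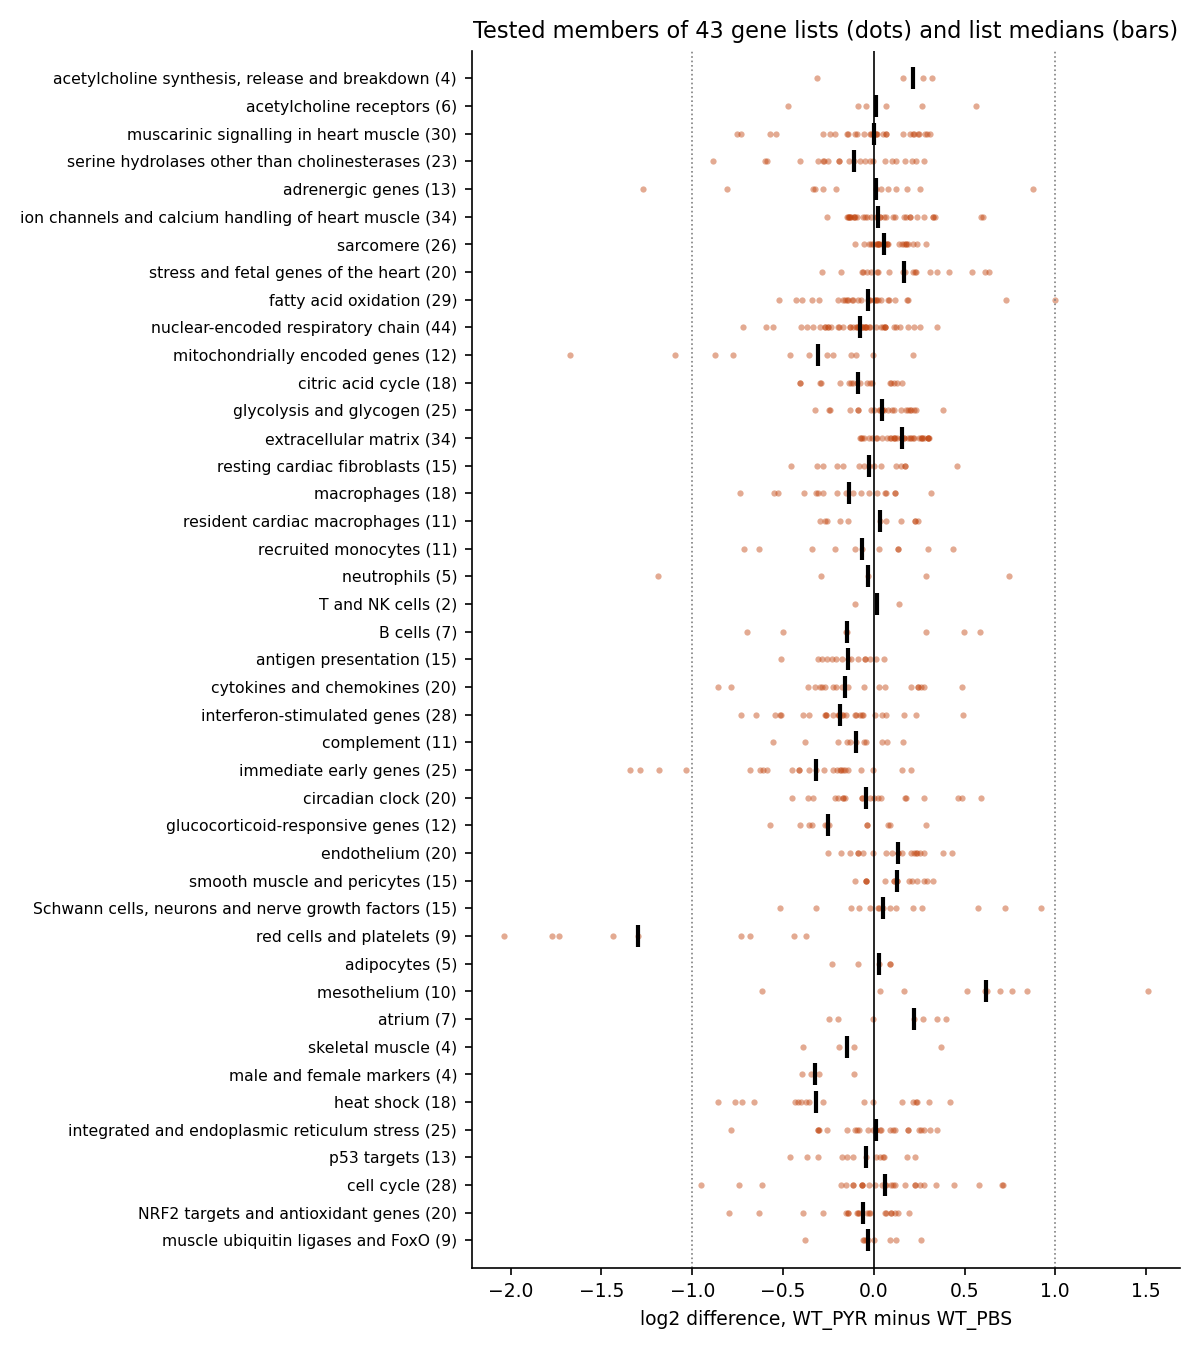
For each of the 43 gene lists (number of tested members in brackets), dots give the log2 difference, WT_PYR minus WT_PBS, of each tested member and the bar gives the list's median. Dotted lines mark 2-fold changes. Most bars lie close to 0; red cells and platelets lie lowest at −1.30 and mesothelium highest at 0.62.

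Markers of the other cells of the ventricle were bounded as far as their level allowed. All 20 endothelial genes lay within 2-fold and 12 within 1.5-fold, with a median of 0.13; Cdh5, an adhesion protein of these cells, averaged 387 ± 30.4 CPM in WT_PYR and 334 ± 51.3 CPM in WT_PBS (0.24, 0.01 to 0.47; SD, n = 6 each). All 11 markers of resident cardiac macrophages lay within 2-fold, and 15 of 18 general macrophage markers did. Of the 11 tested genes listed for recruited monocytes 5 lay within 2-fold. Their estimates went both ways, 5 higher and 6 lower in WT_PYR, with a median of −0.06. Vcam1, an adhesion molecule on that list, had the smallest p (−0.71, −1.16 to −0.27). Ccr2, the chemokine receptor of these cells, had an interval from −1.02 to 1.29. Neutrophil genes could not be bounded at all within 2-fold, 0 of 5, and Ly6g and Elane, also on that list, were at 0 in all 12 libraries. Only 2 of 16 T and NK cell genes were abundant enough to test.

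Inflammatory genes gave no call and often wide intervals. Of 20 cytokine and chemokine genes tested 0 had an unadjusted p under 0.05 and 11 lay within 2-fold. Il1b had 0.0638, 0.452 and 0.993 CPM in WT_PYR and 0, 0.699 and 0.833 CPM in WT_PBS, with an interval from −2.24 to 0.52, so neither a 4-fold fall nor a small rise was outside it. For Tnf the interval ran from −0.83 to 1.32. In interferon-stimulated genes 22 of 28 estimates were below 0 with a median of −0.18, 0 had an unadjusted p under 0.05 and 18 lay within 2-fold. Antigen presentation showed 13 of 15 estimates below 0 with a median of −0.14, and 12 of 15 lay within 2-fold.

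Genes of the extracellular matrix gave no call either. Of 34 extracellular matrix genes 32 lay within 2-fold and 17 within 1.5-fold, 28 estimates were above 0 with a median of 0.15, and 0 had an unadjusted p under 0.05. Col1a1, the main fibrillar collagen, had 174, 197 and 286 CPM in WT_PYR and 84.9, 183 and 288.9 CPM in WT_PBS (0.25, −0.25 to 0.75), and Postn, periostin of activated fibroblasts, differed by 0.02 (−0.78 to 0.81). Spp1, osteopontin, could not be bounded below 5.42-fold. Genes of the mesothelium, the outer lining of the heart, had a median of 0.62 with bounds of up to 16.5-fold, in Upk1b.

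Over all lists together, 720 genes were tested; 341 of them (47.4%) had an interval within 1.5-fold and 557 (77.4%) within 2-fold, against 47.6% and 77.4% over all genes. At an unadjusted p under 0.05 there were 71 (9.86%), against 6.30% over all genes. In 6 lists every tested member lay within 2-fold: glycolysis and glycogen, endothelium, resident cardiac macrophages, glucocorticoid-responsive genes, adipocytes, and T and NK cells.

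Whether the drug acted differently in injured hearts was tested as the interaction, DTR_PYR minus DTR_PBS less WT_PYR minus WT_PBS, in 1 edgeR fit of all 24 libraries. It called 0 of 15456 genes (0%), with 1231 (7.96%) at an unadjusted p under 0.05 and a smallest adjusted p of 0.429, for mt-Tc. limma voom called 0 as well, with 2257 at an unadjusted p under 0.05. For mt-Tc the interaction was 2.59 on the log2 scale and for mt-Ts1 3.02 (edgeR adjusted p = 0.464); a positive value means a higher estimate of the drug difference in injured hearts, and neither passed the test. For Nr4a1 it was 1.44 (edgeR adjusted p = 0.563), for Atf3 −0.06, for Ache 0.10, for Chrm2 0.03, for Nppb −0.86 and for Hbegf −0.62 (edgeR adjusted p between 0.689 and 0.989 for these 5). On this test no gene is called as particular to uninjured or to injured hearts in its response to the drug.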

How the data were processed

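Polyadenylated RNA of 12 uninjured hearts was measured by non-strand-specific, single-end sequencing, per the labels' protocols. The authors deposited unfiltered read counts per Ensembl gene; the mouse build is GRCm38, and HTSeq, Bowtie2, TopHat2 2.1.1, edgeR and DESeq are named without roles, per the submitters' processing notes. The deposited normalised and filtered tables were not used. Of 197 genes deposited without a symbol, 193 were named from GENCODE vM21. Depth was 3.73 to 34.9 M reads per library.

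Genes above 0.5 CPM in at least 6 of the 12 libraries were kept. Calls and p values, two-sided, came from the edgeR 4.0.16 quasi-likelihood test with TMM scaling and Benjamini-Hochberg adjustment over all 13989 genes. Log2 differences, their SE and 95% intervals came from limma 3.58.1 voom on the same genes, in R 4.3.3; equivalence used one-sided moderated tests from that fit. DESeq2 1.42.0 was an alternative, and 1899 of its adjusted p values were NA and stayed so. The fits were also run on simulated data, and the outcome of that check is not reported here. CPM values are TMM-scaled and p values measure the spread between these animals. Tag series (2xxU, 3xxU, 9xxV) are the number ranges of the animal tags, which the labels do not explain. WT_PYR and WT_PBS had 2 animals of each. The injured groups had no 2xxU animals, and most of theirs were tagged 9xxV. Within-series differences are of mean log2 CPM with a prior count of 2. Replicate numbers follow accession order and pair nothing. Library measures were compared by exact permutation (924 arrangements, smallest p 0.00216), adjusted over 3.

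Genes were named by a rule: since under 10 were called, the 12 smallest p values of at least 5 CPM, predicted and unnamed genes left out; a panel of 28 genes; the smallest p and widest interval of each list; and the 6 narrowest and 6 widest intervals of at least 20 CPM, with the same omission. Other genes named, the mitochondrial tRNAs and Gm15564 among them, were chosen after their values were seen. The 43 lists (837 genes) were written from general knowledge. Members and lists were chosen with earlier results of these data known. Not every gene that the rule gives is described, and some are not reported here.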

Additional observations from a re-analysis of the deposited data

Results flagged for a closer look

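Within each group of 6, the highest and lowest library of each named gene and library measure was compared with its nearest neighbour. In 11 of 108 groups that gap, taken on unlogged values, exceeded Dixon's 95% critical share of the group's range. Some of these genes were chosen by p or interval width in the same libraries, and the globins overlap with their sum. The count is therefore not set against a chance rate. WT_PYR 1 stood highest of its group for Col1a1 (286 CPM, next 199), Hcn2 (95.8 CPM, next 61.6), mt-Tm (165 CPM, next 52.4) and Rny3 (80.2 CPM, next 32.5). WT_PYR 3 stood highest for the globins Hbb-bs (218 CPM, next 43.7) and Hba-a1 (71.7 CPM, next 27.5), and for the summed globins (354 CPM, next 77.6). WT_PYR 4 stood highest for Sik1 (69.8 CPM, next 53.3), WT_PYR 2 for Sptan1 (321 CPM, next 300.4) and WT_PYR 5 for Cyp26b1 (36.5 CPM, next 19.1). In the vehicle group, WT_PBS 6 stood lowest for Slc25a4 (4291 CPM, next 4756). WT_PYR 1 was also the lowest library on the first principal component of the 12 (−72.3), which took 38.2% of the variance.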

How the results depend on the processing

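The count of calls, 0, moved in 3 of the alternatives. DESeq2 called 7 genes; edgeR with no filter beyond 1 read called 6 (mt-Ti, mt-Tq, mt-Ta, mt-Tc, mt-Ts1 and Gm15564); and leaving out each library in turn gave 0 to 7 calls, the 7 without WT_PBS 4, with 501 to 1787 genes at an unadjusted p under 0.05 against 881. All of these calls were lower in WT_PYR. The cause was not tested. Calls stayed at 0 with voom, DESeq2 size factors, total-count scaling, a filter of 1 CPM in all 12 libraries, tag series as a block, all 24 libraries in the fit, without the 3 deepest libraries, and with the mitochondrial share as a covariate, which was chosen after seeing the data. Genes at an unadjusted p under 0.05 then ran from 236 (without the 3 deepest) to 1287 (tag series as a block). Leaving out a library gave 10261 to 11106 genes with an interval within 2-fold, 5768 to 7305 within 1.5-fold, and 5360 to 7402 equivalent within 1.5-fold. Over the other alternatives these counts stayed within 1.5 times the values reported. The mitochondrial share differed by −5.44 to −1.52 points, past the threshold without WT_PBS 4 alone (exact permutation p = 0.0411, unadjusted), the total by −9.19 to −2.97 M reads and the share of the 10 top genes by −5.04 to −2.50 points. The interaction stayed at 0 calls under its 3 alternatives. Of 684 values for 38 named genes 674 moved by less than 1 SD. Replicate numbers follow accession order and pair nothing, so the block fitted was the tag series. Depth limits genes under 1 CPM most, where 11.4% could be bounded within 2-fold.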
